A study of Homo sapiens with 16 samples.

Results

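The desmosome genes described here are DSP, JUP, PKP1, PKP2, PKP3, DSC2, DSC3, DSG2, DSG3 and PERP, 10 genes taken by name as components of one type of cell junction. The rule itself uses no measured value, but the list was chosen with earlier results of these data known. Every probe of the array annotated to one of these symbols was taken, which gave 14 probes of the 58201 on the array, all of them among the 34600 probes and 26368 gene names that were tested. The cells were 16HBE, an immortalised, nontumorigenic line of human bronchial epithelium, either with wild-type MET (16HBE-WT) or edited with CRISPR/Cas9 so that exon 14 of the receptor tyrosine kinase MET is skipped (16HBE-ex14). Edited cells came from subclones isolated by limiting dilution. The labels do not name the subclone, and the study gives clone F as the one on the arrays. The edited cells are thus a single clone, and a difference between the genotypes cannot be told apart from a difference between a subclone and its parental line. All cells were deprived of serum for 2 h and then kept for 24 h with HGF, the ligand of MET, at 20 ng/ml or without it. RNA of the 4 groups, named 16HBE-WT and 16HBE-ex14 without HGF and marked +HGF with it, was measured on 16 one-colour arrays, 4 per group, and the 4 replicates were cultures that the methods describe as a week apart. The arrays lay on 2 slides, and each of the 2 rows of a slide held 1 array of every group.

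Desmosomes are spot-like junctions that tie the intermediate filaments of neighbouring epithelial cells together. Desmogleins and desmocollins are the cadherins that meet between the cells, plakoglobin (JUP) and the plakophilins bind their tails, and desmoplakin (DSP) links this plaque to keratin filaments. PERP is a tetraspan membrane protein that desmosomes of stratified epithelia need. In bronchial epithelium desmosomes are most abundant around basal cells, and epithelial cells that scatter under HGF take their junctions apart.

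Each probe is a stretch of 60 bases, and 4 genes had a pair of probes. Those sequences are shown that matter for reading a pair. In the PKP1 pair the capitals mark 49 bases that both probes share, ending in a TAA stop codon, so the pair reads nearly the same stretch of the transcript and is a technical repeat more than a second measurement. In the second DSP probe the capitals mark the TAG stop codon at its end, so this probe reads the end of the coding sequence, while the brighter DSP probe lies further downstream at chr6:7586582-7586641 (hg19, plus strand). The brighter DSC2 probe is printed without capitals: its 60 bases cover 814 bases of the genome, so it crosses at least 1 intron.
PKP1 (chr1:201297905-201297964, plus strand): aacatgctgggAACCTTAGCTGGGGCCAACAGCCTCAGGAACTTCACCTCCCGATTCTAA
PKP1, second probe (chr1:201297916-201297975, plus strand): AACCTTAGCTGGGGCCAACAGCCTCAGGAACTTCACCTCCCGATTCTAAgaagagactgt
DSP, second probe (chr6:7586052-7586111, plus strand): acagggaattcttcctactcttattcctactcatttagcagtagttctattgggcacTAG
DSC2 (chr18:28650796-28651609, minus strand): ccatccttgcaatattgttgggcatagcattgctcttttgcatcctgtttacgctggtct

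The second DSC2 probe lies at chr18:28638806-28638865 and shares no more than 5 bases in a row with the one printed. The probes of the 4 desmosomal cadherin genes fall in one stretch of 555 kb on chromosome 18. JUP was read at chr17:39911150-39911209, PKP2 at chr12:32943741-32943800, PKP3 at chr11:404848-404907 and PERP at chr6:138412056-138412115, all in hg19 positions of the array annotation. The accession attached to a probe was found in RefSeq under the same symbol for every one of the 14 except the second DSC2 probe, whose accession was not matched.

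Values are log2 signals minus the 75th percentile of their array, so that 0 is the brightness of a probe at that percentile and 1 unit is a doubling. All 14 probes were well above background on all 16 arrays and none was saturated. Over the arrays the 75th percentile lay between 138.4 and 259.8 intensity units, and between 49% and 60.3% of probes were well above background. Of the epithelial markers EPCAM, CDH1, KRT8, KRT18 and KRT19, 5 of 5 were above background on all 16 arrays, as were 2 of 6 fibroblast, 2 of 3 endothelial and 3 of 3 leukocyte markers. Another 3 fibroblast markers and 1 endothelial marker were above background on no array. The summed linear level, in multiples of the 75th percentile, was 1530 to 2050 for the epithelial list, at most 1.05 for the fibroblast list, 0.564 for the endothelial and 1.27 for the leukocyte list. Airway basal markers were less even: 3 of 4 were above background on all 16 arrays, and their summed level was 8.29 to 12 in 16HBE-WT against 2.04 to 2.62 in 16HBE-ex14. With HGF it was 6.07 to 8.91 in the wild-type cells and 0.923 to 1.02 in the edited ones. A sum of linear levels weighs bright markers most, and not all 4 markers shared this fall. Between the genotypes 2 of 4 were lower past an adjusted p of 0.05 and a 1.5-fold change, in either condition. The log2 difference lay below zero in 3 of 4 without HGF and in 2 of 4 with it. For HGF it lay below zero in 3 of 4 in 16HBE-ex14 and in 2 of 4 in 16HBE-WT. The part of these markers in the results below was not tested.

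**Figure D1:**
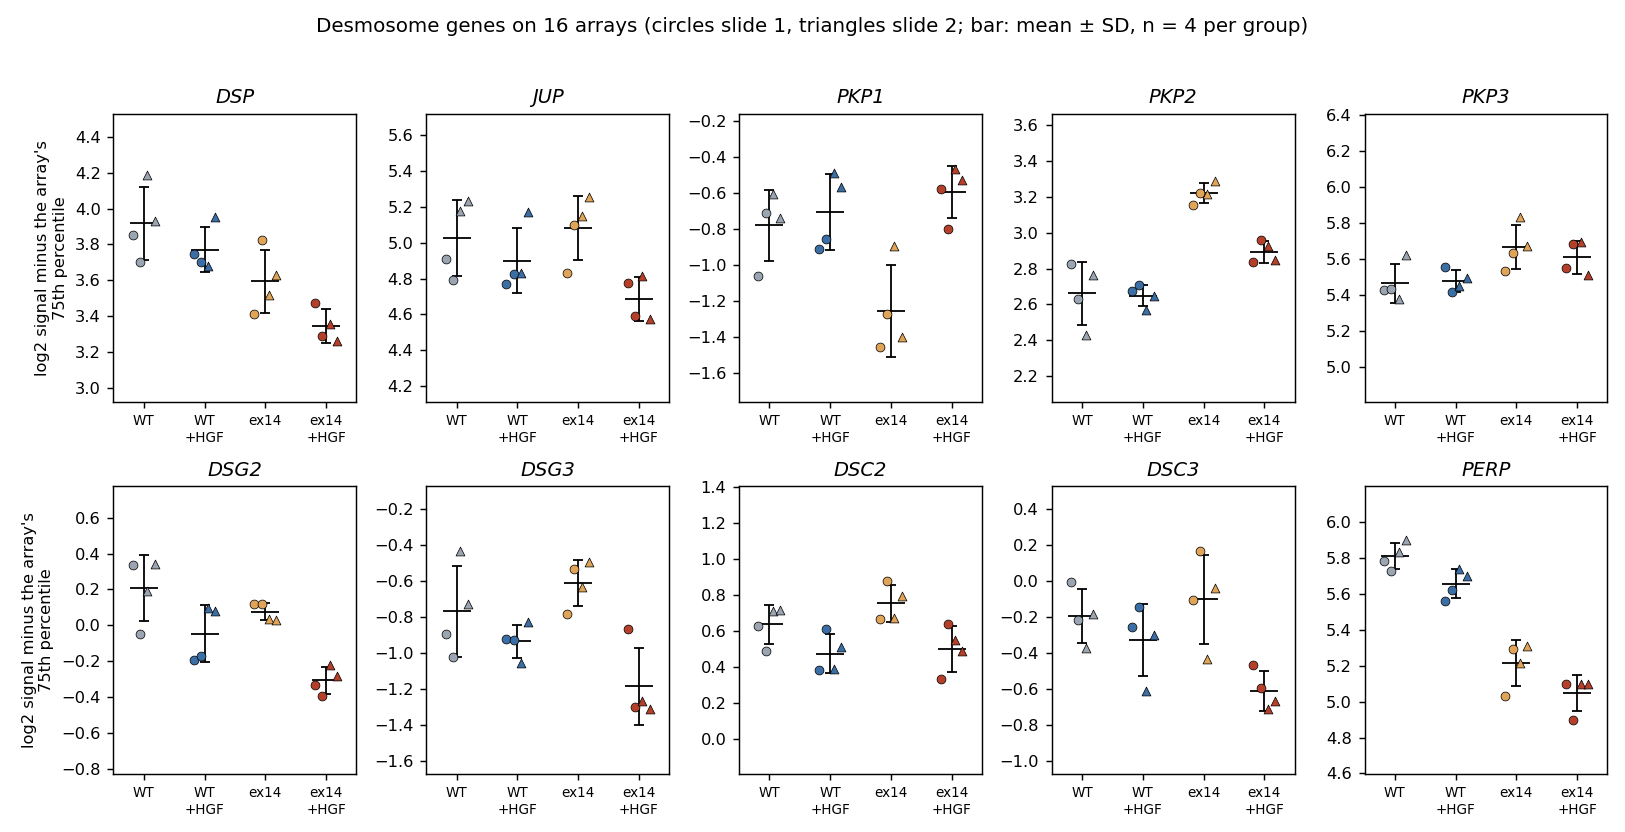
Log2 signal minus the array's 75th percentile (vertical axis, of the same length in every panel) of the brighter or only probe of each desmosome gene in the 4 groups; points are arrays, and bars are the mean ± SD of 4 arrays. PKP1 stands lowest in 16HBE-ex14, PKP2 stands highest there, PERP steps down between the genotypes, and the arrays of the 4 cadherin genes lie lower in 16HBE-ex14+HGF than in 16HBE-ex14.

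The first comparison asked what HGF did in cells with exon-skipped MET. HGF raised PKP1, the plakophilin of suprabasal stratified epithelium, by 0.66 ± 0.15 on the log2 scale (SE), 1.58-fold, and lowered the basal-type desmoglein DSG3 by an amount just short of the fold limit. The other 8 genes lay below zero, between -0.51 (DSC3) and -0.06 (PKP3). Calls were made with limma at an adjusted p under 0.05 and a fold change above 1.5: 1 of the 10 genes was called, against 1.99% of all 34600 probes tested, and 2 of 10 were past the adjusted p limit alone, against 2.85%. In all, 9 of 10 genes were below zero, against 44.7% of the 25092 probes that were likewise above background on all 16 arrays. The median of the 10 genes was -0.29, beside 0.03 for those bright probes. Scaling to the array median moved the median of all tested probes from 0.06 to -0.11, and the median of the genes relative to that median was -0.35, which a change of scaling constant cannot alter. The number below zero was 9 of 10 also with array-median and spike-in scaling, quantile normalization and normexp background correction. In bulk RNA, less RNA of a gene per cell and fewer cells that make it cannot be told apart.

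**Figure D2:**
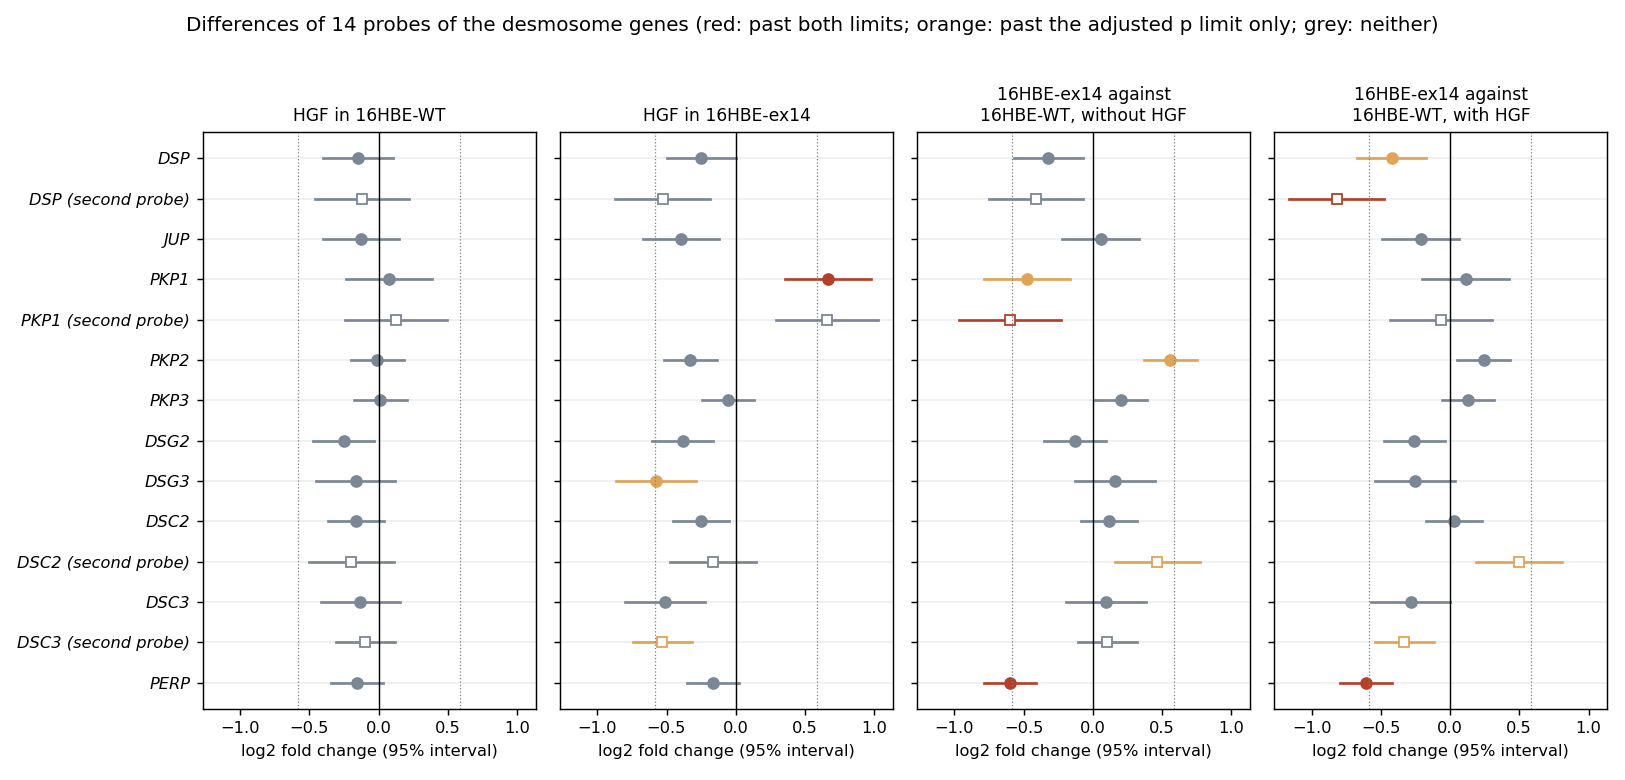
Log2 fold changes (horizontal axis) with 95% intervals for the 14 probes in 4 comparisons; filled circles are the brighter or only probe of a gene, open squares the second probe, and dotted lines the 1.5-fold limit. In 16HBE-ex14 cells given HGF, PKP1 lies at 0.66 and all other genes lie left of zero, whereas no gene is past a limit for HGF in 16HBE-WT.

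All 4 desmosomal cadherins lay below zero with groups that did not overlap, and 1 of them, DSG3, was past the adjusted p limit. DSG3, a desmoglein of basal keratinocytes, measured -0.78, -0.53, -0.63 and -0.49 in the 16HBE-ex14 arrays and -0.86, -1.30, -1.27 and -1.31 with HGF. The groups did not overlap, although replicate 1 with HGF stood close to the untreated arrays. The DSG3 difference was -0.58 ± 0.13 (SE), 1.49-fold lower, with an adjusted p of 0.0314 in limma. Leaving out 16HBE-ex14 replicate 2 or 4 or 16HBE-ex14+HGF replicate 2, 3 or 4 gave adjusted p values past 0.05 and up to 0.11, with differences from -0.55 to -0.53. Without replicate 1 of the untreated or of the HGF-treated edited cells DSG3 was past both limits at -0.63 and -0.68.

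DSC3, the desmocollin partner in basal layers, measured -0.11, 0.17, -0.43 and -0.04 without HGF and -0.46, -0.60, -0.71 and -0.67 with it. Its groups were apart by a narrow margin, set by the third untreated array. The difference was -0.51 ± 0.13 (SE) with an adjusted p of 0.0592, and without 16HBE-ex14 replicate 3 it was -0.62 with 0.0142, past both limits. The second DSC3 probe, whose accession is that of another transcript of the gene, fell by 0.53 ± 0.10 (SE) with an adjusted p of 0.0104.

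DSG2, the desmoglein found in every epithelium with desmosomes, measured 0.12, 0.12, 0.04 and 0.03 without HGF and -0.33, -0.40, -0.22 and -0.28 with it. Its untreated arrays were the tightest group of the 4 cadherins, with an SD of 0.05, and all treated arrays lay below them. The difference was -0.38 ± 0.10 (SE), adjusted p 0.0643. DSC2, the most widely expressed desmocollin, ran from 0.67 to 0.88 without HGF and from 0.33 to 0.64 with it, a difference of -0.25 ± 0.09 (SE) with an adjusted p of 0.216. Its second probe gave -0.16 ± 0.14 (SE), and there the groups overlapped.

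Among the plaque proteins PKP1 went the other way. The brighter PKP1 probe measured -1.46, -1.27, -0.89 and -1.40 without HGF and -0.58, -0.80, -0.47 and -0.53 with it. Every treated array was above every untreated one, and the adjusted p was 0.0236. The overlapping second probe gave nearly the same size, 0.66 ± 0.17 (SE), with an adjusted p of 0.058. The PKP1 call was not stable: leaving out 16HBE-ex14 replicate 1, 2 or 4 or 16HBE-ex14+HGF replicate 1, 3 or 4 gave adjusted p values between 0.0508 and 0.0878, with log2 fold changes from 0.60 to 0.66. PKP1 was also not called with array-median scaling (adjusted p 0.153), spike-in scaling (0.184), no filter on dim probes (0.0544), only the compared arrays (0.0888) or normexp, where its 0.44 was within the fold limit.

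PKP2, a plakophilin of simple epithelia and heart, measured 3.15, 3.22, 3.22 and 3.29 without HGF and 2.84, 2.96, 2.92 and 2.85 with it. The groups were tight and apart, and the difference was -0.33 ± 0.09 (SE) with an adjusted p of 0.0684. JUP, shared between desmosomes and adherens junctions, measured 4.83, 5.10, 5.15 and 5.25 without HGF and 4.77, 4.59, 4.81 and 4.58 with it. The lowest untreated JUP array was just above the highest treated one, and the difference was -0.39 ± 0.13 (SE), adjusted p 0.143. PKP3, a plakophilin of most epithelia, differed by -0.06 ± 0.09 (SE), with a 95% interval from -0.25 to 0.13.

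DSP, the obligate keratin linker, ran from 3.41 to 3.82 without HGF and from 3.26 to 3.48 with it, a difference of -0.25 ± 0.12 (SE) with an adjusted p of 0.359. On the second DSP probe the groups were apart, from 2.06 to 2.60 against 1.60 to 1.98, and the difference was -0.53 ± 0.16 (SE) with an adjusted p of 0.105. PERP differed by -0.17 ± 0.09 (SE), adjusted p 0.425.

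In total 7 of the 10 genes had groups that did not overlap, against 8.87% of all tested probes, and in 6 of them the HGF arrays were lower, against 4.37%. The slide is part of the design, and arrays of one slide deviated together: between arrays of different groups the correlation of deviations from the group mean had a median of 0.205 in the same row of a slide, 0.212 in the other row and -0.197 across slides. With slide as a block in limma, 6 of 10 genes were past the adjusted p limit, against 4.45% of all probes. The adjusted p values were then 0.00529 for PKP1, 0.0159 for DSC3, 0.0261 for DSG3, 0.0321 for DSG2, 0.0438 for PKP2 and 0.049 for JUP. This count depended on the fit: 2 of 10 genes were past the adjusted p limit without a block and with the replicate number as a block. It was 5 when only probes above background on all 16 arrays were tested. With spike-in scaling, without the filter on dim probes or with only the compared arrays fitted it was 0, and with 1 array left out 0 to 3. Within each slide taken alone the difference had the same sign for 9 of 10 genes, and PKP3 was the exception. PKP1 differed by 0.68 on slide 1 and 0.65 on slide 2, DSG3 by -0.43 and -0.73, and DSC3 by -0.56 and -0.46.

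In 16HBE-WT cells HGF moved no desmosome gene past a limit. The 10 differences ran from -0.25 to 0.08 with a median of -0.14, and 8 of 10 were below zero, against 41.9% of the bright probes. DSG2 was the farthest at -0.25 ± 0.10 (SE), adjusted p 0.975, from 0.34, -0.05, 0.19 and 0.34 without HGF to -0.19, -0.17, 0.10 and 0.08 with it, and these groups overlapped. PKP1 gave 0.08 with a 95% interval from -0.24 to 0.39, PKP2 gave -0.01 and PKP3 gave 0.01, and the sign of these 3 changed with the scaling or with 1 array left out. In limma 0 of 10 genes and 0% of all probes were called, also without the fold limit, and 1681 probes, with DSG2 among them, had an unadjusted p under 0.05. None of the 10 genes had groups apart, against 2.59% of all probes.

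The difference between both HGF responses was then tested directly, since a call in one genotype alone does not show that the responses differ. In limma 0 of 10 genes and 0% of all probes passed, with or without the fold limit, while 3 of the genes and 1586 of all probes had an unadjusted p under 0.05. For PKP1 the response was larger in 16HBE-ex14 by 0.59 ± 0.21 (SE), with a 95% interval from 0.15 to 1.03 and an adjusted p of 0.918. DSG3 gave -0.41 ± 0.19 (SE) and PKP2 -0.32 ± 0.13 (SE), with adjusted p values of 1 and 0.99.

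Averaged over the genotypes, HGF lowered DSG2, with a difference of -0.32 ± 0.07 (SE) and an adjusted p of 0.0317, which passed 0.05 narrowly: it lay between 0.0503 and 0.0776 without any 1 of 12 of the 16 arrays. On the brighter or only probe this was 1 of 10 genes past the adjusted p limit, against 2.69% of all probes, and 0 of 10 were called with the fold limit, against 1.12%. The second DSC3 probe was past the adjusted p limit too, at -0.31 ± 0.07 (SE) with 0.0287 in limma. On the brighter or only probe the count past this limit was 0 with spike-in scaling (lowest adjusted p 0.115 in limma). It was 0 also without the filter on dim probes (0.0822), so DSG2 did not pass in either. The count was 2 with array-median scaling or quantile normalization and 3 with normexp. Of the 10 genes 9 were below zero, against 42% of the bright probes, and 9 had an unadjusted p under 0.05, against 15.1% of all probes. With slide as a block, 4 of 10 were past the adjusted p limit, namely DSG2, DSG3, DSC3 and PKP1, against 4.51% of all probes.

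Between the genotypes PERP was lower in the edited cells. Without HGF it measured 5.78, 5.73, 5.83 and 5.90 in 16HBE-WT and 5.03, 5.29, 5.22 and 5.31 in 16HBE-ex14. With HGF it measured 5.56, 5.62, 5.74 and 5.70 in 16HBE-WT+HGF and 5.10, 4.90, 5.10 and 5.10 in 16HBE-ex14+HGF. In either condition all arrays of the edited cells were below all arrays of the wild-type cells. The PERP difference was -0.60 ± 0.09 (SE) without HGF and -0.61 ± 0.09 (SE) with it, 1.51-fold and 1.53-fold lower, with adjusted p values of 0.000307 and 0.00022.

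PERP was the 1 gene of 10 called in each of these comparisons, against 9.43% of all probes without HGF and 10.8% with it. These sizes sit at the fold limit, so the call is easily lost: without 16HBE-WT replicate 4 and without 16HBE-ex14 replicate 1 the difference without HGF was -0.57 and -0.54, and without 16HBE-WT+HGF replicate 3 and without 16HBE-ex14+HGF replicate 2 the difference with HGF was -0.58 and -0.56. With normexp, array-median or spike-in scaling PERP was within the fold limit too, at -0.53, -0.46 and -0.51 without HGF (adjusted p 3.95e-05, 0.0361 and 0.0231) and at -0.51, -0.52 and -0.58 with it. On the separate slides the difference without HGF was -0.59 and -0.60.

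Genes beside PERP on chromosome 6 were lower in the edited cells too. Of the 50 tested genes nearest to it, 25 on each side between positions 134957640 and 143109581 (hg19), 37 lay below zero without HGF and 42 with HGF. Their medians were -0.32 and -0.42, and 10 and 9 of them were called as lower and none as higher. Of all 34600 tested probes 52.2% and 50% lay below zero, and 1707 and 1879 were called as lower. In 12 and 11 of the neighbours the difference lay further below zero than that of PERP. Their median stayed below zero under the 5 ways of scaling and background correction tried, from -0.32 to -0.18 without HGF. The part of this region in the PERP difference was not tested.

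**Figure D3:**
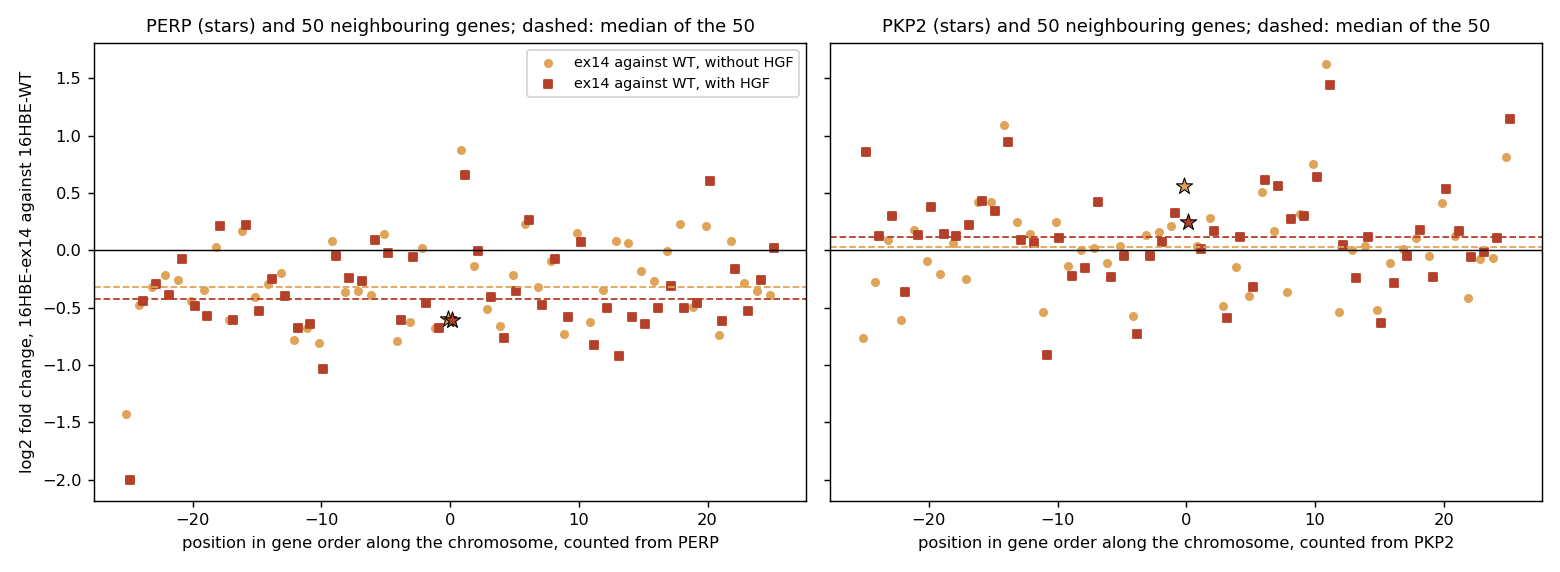
Log2 fold change of 16HBE-ex14 against 16HBE-WT (vertical axis) for the 50 tested genes nearest to PERP on chromosome 6 (left) and to PKP2 on chromosome 12 (right), in gene order (horizontal axis); stars are PERP and PKP2, dashed lines the median of the neighbours. The points around PERP lie mostly below zero, with medians of -0.32 and -0.42, and those around PKP2 lie on both sides of it.

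PKP2 was higher in the edited cells. Without HGF it measured 2.83, 2.63, 2.43 and 2.76 in 16HBE-WT, all under the lowest 16HBE-ex14 array at 3.15. The difference was 0.56 ± 0.09 (SE), 1.47-fold, with an adjusted p of 0.000592. With HGF the groups were still apart, at 0.24 ± 0.09 (SE), but the adjusted p was 0.071, and 0.0477 with slide as a block. The 50 neighbours of PKP2 on chromosome 12 had medians of 0.03 and 0.11, or -0.12 and -0.05 with normexp. The difference lay further above zero than that of PKP2 in 4 of them without HGF and in 16 with HGF.

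Without HGF PKP1 was lower in 16HBE-ex14 than in 16HBE-WT. In 16HBE-WT it measured -1.06, -0.71, -0.61 and -0.74, and the highest 16HBE-ex14 array, at -0.89, reached into that range. The difference was -0.48 ± 0.15 (SE) with an adjusted p of 0.0344, and the second probe gave -0.60 ± 0.17 (SE) with 0.0255, past both limits. Without 16HBE-WT replicate 2, 3 or 4 or 16HBE-ex14 replicate 1, 2 or 4 the brighter probe gave adjusted p values from 0.0693 to 0.0942. With HGF the probes gave 0.11 ± 0.15 (SE) and -0.06 ± 0.17 (SE), on both sides of zero, and the change in the PKP1 difference with HGF did not pass, with the adjusted p of 0.918 given above. PERP, PKP2 and PKP1 were the 3 of 10 genes past the adjusted p limit without HGF, against 18.3% of all probes. With slide as a block it was also 3 of 10, against 23.8%. With array-median or spike-in scaling it was 2 of 10, PERP and PKP2, so PKP1 did not pass there. The count was also 2 without the filter on dim probes or with only the compared arrays fitted. It was 3 with quantile normalization and 4 with normexp.

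With HGF present DSP was lower in the edited cells. It measured 3.75, 3.70, 3.68 and 3.95 in 16HBE-WT+HGF and 3.48, 3.29, 3.36 and 3.26 in 16HBE-ex14+HGF. The groups were apart, and the difference was -0.42 ± 0.12 (SE) with an adjusted p of 0.0191, or past 0.05 and up to 0.0618 without 16HBE-WT+HGF replicate 4 or 16HBE-ex14+HGF replicate 2 or 4. On the second DSP probe it was about double that size, -0.82 ± 0.16 (SE), 1.77-fold lower, with an adjusted p of 0.00205. The brighter DSP probe was not past the adjusted p limit with array-median or spike-in scaling, where PERP alone of the members was. With the mean of both DSP probes the difference was past both limits, at -0.62 with an adjusted p of 0.00482 in limma. Without HGF the brighter probe gave -0.32 ± 0.12 (SE) with an adjusted p of 0.0733, and the test of the change in this difference with HGF gave -0.10 ± 0.17 (SE) with an adjusted p of 1.

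With HGF present, DSP and PERP were the 2 of 10 genes past the adjusted p limit, against 20.5% of all probes, and with slide as a block PKP2 joined them as the third of 3, against 26.9%. Groups did not overlap for 2 of 10 genes without HGF (PERP and PKP2), against 21.3% of all probes, and for 4 of 10 with HGF (PERP, DSP, DSG2 and PKP2), against 23.9%. Each of these counts is within 2 genes of what the share of all probes would give. The cadherins and the other plaque genes stayed inside the limits on their brighter probe: without HGF the differences were 0.16 for DSG3, 0.09 for DSC3, 0.12 for DSC2, -0.13 for DSG2, 0.06 for JUP and 0.20 for PKP3. With HGF DSG2 gave -0.26 ± 0.10 (SE), adjusted p 0.0939, DSC3 gave -0.28 ± 0.13 (SE), with -0.33 ± 0.10 (SE), an adjusted p of 0.0286 and groups apart on its second probe, and DSG3 gave -0.25 ± 0.13 (SE), while JUP gave -0.21, PKP3 0.13 and DSC2 0.03.

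A pair of probes on one gene need not report the same change, and for DSC2 and DSP they did not. The log2 ratio of the brighter to the second probe was compared between the genotypes by an exact permutation test over 4900 relabellings. Labels were exchanged within each HGF condition, and the mean of the genotype differences of both conditions was tested. It was one of 8 such tests chosen after the values had been seen. For DSC2 the ratio was 1.78 ± 0.21 (SD, n = 4) in wild-type cells and 1.43 ± 0.12 in edited cells without HGF. With HGF it was 1.81 ± 0.10 and 1.34 ± 0.34. The genotype difference of the DSC2 ratio was -0.41, with an exact two-sided p of 0.000816 and 0.00653 after Benjamini-Hochberg adjustment, but with normexp background correction it was -0.15 with an exact p of 0.051. The second DSC2 probe by itself was higher in the edited cells, by 0.47 ± 0.14 (SE) without HGF and 0.50 ± 0.14 (SE) with it, with adjusted p values of 0.0368 and 0.0236 in limma.

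For DSP the ratio was 1.21 ± 0.05 (SD, n = 4) in wild-type cells and 1.30 ± 0.09 in edited cells without HGF. With HGF it was 1.18 ± 0.10 and 1.58 ± 0.11. The genotype difference of the DSP ratio was 0.24, with an exact two-sided p of 0.00245 and 0.0098 after adjustment, and 0.23 with normexp. Averaged over the HGF conditions, the second DSP probe was thus lower in the edited cells by more than the probe downstream of it. This second probe ends at the stop codon printed above. The DSP ratios of the genotypes lay closer together without HGF than with it, and the conditions were not tested apart. For PKP1 and DSC3 the genotype difference of the ratio was 0.15 and 0.02, with adjusted exact p values of 0.0872 and 0.944, and for HGF none of the 4 genes passed, with adjusted exact p values from 0.126 to 0.944.

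**Figure D4:**
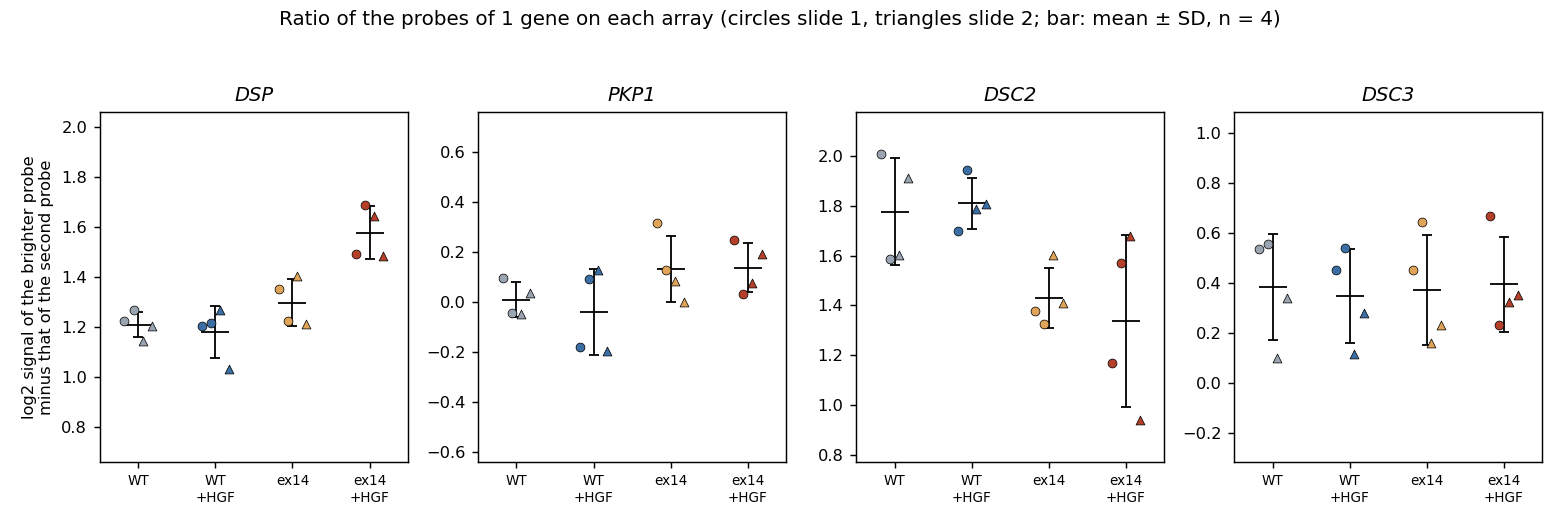
Log2 signal of the brighter probe minus that of the second probe (vertical axis) on each array for the 4 genes with a pair of probes; bars are the mean ± SD of 4 arrays. DSP rises from 1.21 in 16HBE-WT to 1.58 in 16HBE-ex14+HGF, DSC2 is lower in the edited cells, and DSC3 stays between 0.35 and 0.40.

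Of the other desmosomal genes DSC1, DSG1 and DSG4, which belong to terminally differentiating epidermis, hair or both, were not well above background on enough arrays to be tested. PKP4, an armadillo protein of junctions, had means of 0.79 in wild-type cells, 1.28 in edited cells and 0.81 in edited cells with HGF, so it was higher in the edited cells, at 0.49 ± 0.10 (SE) with an adjusted p of 0.00407, and fell with HGF there, at -0.48 ± 0.10 (SE) with 0.0223. CDSN, corneodesmosin, was higher in 16HBE-ex14 than in 16HBE-WT, at 0.86 ± 0.18 (SE), adjusted p 0.00324.

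Some genes of the filaments that desmosomes anchor moved more than any desmosome gene. Among 10 plakin linkers and keratins, HGF in 16HBE-ex14 lowered 3 past both limits and raised none. Their log2 differences were those of the basal keratin KRT5, at -2.31 ± 0.19 (SE), its partner KRT14, at -0.96 ± 0.22 (SE), and KRT17, at -1.08 ± 0.20 (SE). The median of this list was -0.03, and the simple keratins KRT8, KRT18 and KRT19 were not past a limit. Without HGF the edited cells had 4 of 10 lower past both limits, KRT5 at -2.57, KRT14 at -1.74, KRT6A at -1.62 and KRT17 at -1.61 on the log2 scale, and 1 higher, PPL, the plakin periplakin, at 0.73 ± 0.13 (SE).

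Of 8 adherens junction genes HGF lowered 2 in 16HBE-ex14 past the adjusted p limit and called 0. E-cadherin (CDH1) went from 3.74 ± 0.26 to 3.16 ± 0.18 (SD, n = 4), a difference of -0.58 with an adjusted p of 0.0358, and vinculin (VCL) differed by -0.45 with 0.0396. The median of the 8 genes was -0.30, close to that of the desmosome genes. Between the genotypes AFDN, afadin, was the 1 gene called, at -0.70 without HGF and -0.91 with it.

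Among 12 regulators of epithelial junction genes, 11 were tested, and for HGF in 16HBE-ex14 none passed a limit. Between the genotypes the edited cells had GRHL3, a grainyhead factor, lower at -0.68 and SNAI2, the repressor Slug, lower at -1.14 without HGF, and TWIST1 higher at 0.77. With HGF GRHL1 was called as well, at -0.80. Of 6 genes of desmosome turnover and calcium handling, EGFR at 0.79 and PRKCA at 0.78 were called as higher in 16HBE-ex14 than in 16HBE-WT without HGF, ADAM17 was lower, at -0.50 with an adjusted p of 0.0048, and none was past a limit for HGF in 16HBE-ex14.

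**Figure D5:**
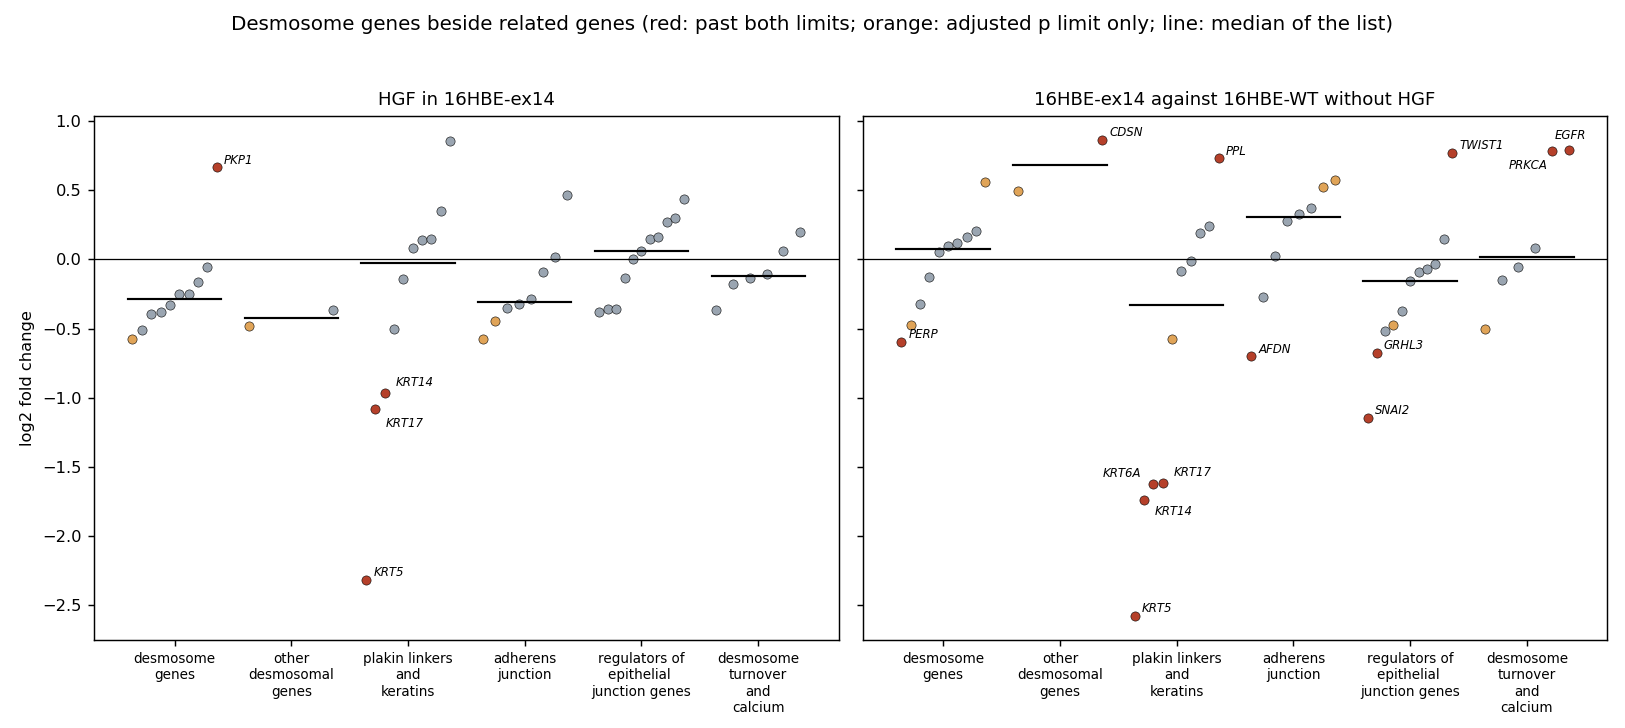
Log2 fold changes (vertical axis) of the 10 desmosome genes and of the tested genes of 5 related lists, for HGF in 16HBE-ex14 (left) and for 16HBE-ex14 against 16HBE-WT without HGF (right); points are genes, horizontal lines the median of a list, and genes past both limits are named. For HGF the desmosome genes and the adherens junction genes have medians of -0.29 and -0.30, while KRT5, KRT14 and KRT17 lie far below them.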

How the data were processed

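RNA of 16HBE cells was hybridised to 16 one-colour Agilent arrays. The authors deposited intensity values, which are background-subtracted processed signals of Agilent Feature Extraction 10.7.3.1 (per the submitters' processing notes) with no scaling between arrays, and the combined table repeats them. The methods name limma, an adjusted p below 0.05 and a fold change above 1.5, and the normalization is not given in the sources used here.

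After removal of outlier spots, log2 values were centred on the array's 75th percentile, and repeated spots were averaged. Limma 3.58.1 in R 4.3.3 was run on the 34600 of 58201 probes that at least 4 arrays showed well above background, with 1 mean per group, empirical Bayes and Benjamini-Hochberg adjustment within a contrast, and the fit was tested on simulated data. Each gene stands for its brightest tested probe. Named are all 10 members and, per related list and contrast, at most 4 called genes. PKP4, CDH1, VCL and ADAM17 were named after their values were seen. Neighbours are the 25 tested genes on each side. The members and lists were chosen with earlier results of these data known. Figures were drawn with matplotlib 3.10.9. The number of arrays limits the precision. Positions follow the hg19 annotation of the array, and exons and UTRs were not used here. Other background corrections, scalings, filters, blocks and fits, and leaving out each array, were tried as alternatives.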

Additional observations from a re-analysis of the deposited data

Results flagged for a closer look

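In 56 groups of 4 arrays, each 1 probe in 1 group, the highest or lowest array was set against the others by its gap divided by the range of the group, against Dixon's 95% limit for 4 arrays. There were 3 past it, and chance passes about 1 group in 20. JUP in 16HBE-WT+HGF had a gap of 0.844: replicate 4 measured 5.17 and the other arrays 4.77 to 4.83. DSG3 in 16HBE-ex14+HGF had a gap of 0.901: replicate 1 measured -0.86 and the others -1.31 to -1.27, and without it the difference between 16HBE-ex14+HGF and 16HBE-ex14 in DSG3 was -0.68 with an adjusted p of 0.0133 in limma, past both limits. PERP in 16HBE-ex14+HGF had a gap of 0.993: replicate 2 measured 4.90 and the others all 5.10. The cause of these gaps was not tested.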

How the results depend on the processing

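Over 54 results, 640 of 668 values under other settings kept their direction and their call, 12 lost a call, 9 gained one and 7 changed sign. With 1 array left out, 838 of 864 did so, 10 lost a call, 6 gained one and 10 changed sign. A call here needs both limits, except where the fold limit was dropped, or an exact permutation p under 0.05 for a probe ratio. A gene past the adjusted p limit alone counts as not called, so losing that limit is not among these changes.

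For HGF in 16HBE-ex14, where 1 desmosome gene was called, the count was 0 with normexp, with spike-in scaling, without the filter on dim probes and with only the compared arrays fitted, 2 without the fold limit, and 0 to 2 with 1 array left out. With array-median scaling DSG3 was called instead of PKP1. For the genotypes without HGF, where 1 was called, the count was 0 with normexp, 3 without the fold limit and 0 to 2 with 1 array left out. With HGF, where 1 was called, it was 0 with normexp, array-median and spike-in scaling, 2 without the fold limit and with the mean of a gene's probes, and 0 to 1 with 1 array left out. In HGF averaged over the genotypes it was 1 without the fold limit. PKP2 without HGF was past both limits at 0.70 with array-median and 0.65 with spike-in scaling, and without 16HBE-WT replicate 1 (0.61) or 4 (0.59).

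Signs changed among differences near zero, and the cause was not tested. For HGF in 16HBE-WT, PKP1 was -0.0408 with array-median scaling and -0.0192 to 0.145 with 1 array left out, and PKP2 was -0.0893 to 0.0432 with 1 array left out. PKP3 there was -0.00963 with normexp, -0.0283 with quantile normalization, -0.103 with array-median and -0.0109 with spike-in scaling, and -0.0152 to 0.0659 with 1 array left out. Between the genotypes without HGF, JUP was -0.0402 with quantile normalization and -0.0234 to 0.139 with 1 array left out, and DSG2 was 0.00818 with array-median scaling. With HGF, DSC2 was -0.0157 to 0.0857 with 1 array left out.

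Replicate numbers follow slide and row, and same-row arrays did not correlate more than other arrays of the slide, so the numbers do not pair the samples. With the replicate number as a block, 1 gene was called for HGF in 16HBE-ex14 and 1 in either genotype comparison, as without it, and 740 probes were called for HGF in 16HBE-ex14 beside 687. That count was 413 with normexp, 247 with only the compared arrays and 347 to 968 with 1 array left out, lowest without 16HBE-ex14 replicate 2 (347) or 4 (365) or 16HBE-ex14+HGF replicate 3 (363) or 4 (439). In the genotype comparisons normexp called 1488 and 1816 probes in place of 3263 and 3739, and for averaged HGF 135 in place of 388. Of the probes called for HGF in 16HBE-ex14, 52.8% were raised, 24.5% with array-median and 39.4% with spike-in scaling. For averaged HGF it was 56.2%, or 24.7% with array-median scaling, 42.2% with spike-ins and 42.9% with quantile normalization, and between the genotypes with HGF 49.7%, or 66% with array-median scaling and 36.3% without the filter on dim probes. Without HGF the share raised between the genotypes was 47.7%, or 71.5%, 65.5% and 59.1% with array-median scaling, spike-ins and normexp, where the median of all probes moved from -0.02 to 0.12, 0.07 and -0.13.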
